A study of Mus musculus with 8 samples.

Results

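Genes that mark leukocytes and endothelial cells were followed in sorted colon fibroblasts, from which both kinds of cell had been gated out. The list named 36 genes, 26 of leukocytes and 10 of endothelium. Of these, 34 were measured, among 30701 genes in all, since only rows whose platform annotation names a single gene were used. Trbc2 and Egfl7 had no such row and are not analysed here. Each measured marker gene had 1 row. The genes were chosen as markers of cells that could be carried over in the sort, and whether any signal came from such cells was not tested.

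The cells came from the colon of wild-type C57BL/6J mice and were gated as Epcam-, CD45-, CD31- and gp38+. They were then split by the surface protein CD90, coded by Thy1, into a CD90- and a CD90+ population. Each population had 4 samples with 1 array each, named here by the numbers in their titles; 13, 15, 17 and 19 were CD90- and 14, 16, 18 and 20 were CD90+. The samples came from 4 mice, no label says which samples share a mouse, and age is not given in the labels, so the p-values rest on the spread among these arrays alone. The question was whether marker genes of the gated-out cells differed between the 2 populations of fibroblasts.

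CD45, coded by Ptprc, is a phosphatase on the surface of nearly all leukocytes, and CD31, coded by Pecam1, is an adhesion molecule of endothelial cells, platelets and some leukocytes. The colon wall holds many macrophages, T cells and IgA-secreting plasma cells, and blood and lymphatic vessels run beside its fibroblasts. Several of the genes are not exclusive to the cells they mark: Cd68 codes for a lysosomal membrane glycoprotein, and Ramp2 for a partner of the calcitonin receptor-like receptor that serves several cell types.

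Values are log2 expression as deposited, and differences are CD90+ minus CD90-. The values reach 19.85 and the settings behind this scale are not given, so differences are not read as fold changes. A gene is said to be called where limma's adjusted p over all genes tested was under 0.05. Levels of different genes are not ranked, since probes differ in how brightly they report. In bulk samples, fewer cells of a type and less RNA per cell cannot be told apart. The array's 5222 negative control rows had medians between 6.58 and 6.84 on the 8 arrays, above the median of all transcript clusters, at 5.30 to 5.41. The 23 rows that the array names as background had medians between 3.20 and 3.33, and every marker gene value lay above these. The fibroblast genes Dcn, Lum and Col1a2 had means of at least 14.65 in both populations. Thy1 was at 5.52 ± 0.046 in CD90- and 7.69 ± 0.47 in CD90+ samples (SD, n = 4 each), Pdpn, which codes for gp38, at 13.17 and 13.20, and Epcam at 8.06 ± 0.83 and 8.19 ± 0.83. Samples 13 and 14 stood apart: Xist, the noncoding RNA of X inactivation, was at 16.16 and 16.27 there and between 5.89 and 9.32 in the other 6, while Uty, a gene of the Y chromosome, was at 5.49 and 5.56 there and between 9.65 and 10.06 in the others. Differences of marker genes that rest on those 2 samples are given with and without them. Ranks of samples within a population are given only with them.

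Most of the marker genes lay between the medians of the array's background rows and its negative control rows. Of the 34, 27 had means below the lowest control median of 6.58 in both populations, and 16 stayed below 5.36, the median of all values, on all 8 arrays. A test required a value of at least 5.36 on at least 4 arrays, which 16 of the 34 reached, 10 of leukocytes and 6 of endothelium. Among these 16, 7 were called higher in CD90+ samples, where the same call fell on 14.0% of the 17221 genes tested, and 2 were called lower, where it fell on 15.7%. The 7 were Cd68, Cx3cr1, C1qa, Cd3e, Cd79a, Jchain and Ramp2, and the 2 were Lyve1 and Prox1. Of these, Cx3cr1, C1qa, Cd3e, Cd79a and Prox1 had means below 6.58 in both populations, Jchain in CD90- only and Lyve1 in CD90+ only. Every marker gene value, at most 10.32, lay below the 95th percentile of the negative control rows, at 11.13 to 11.53. A call therefore does not show that a gene was detected above these controls. Without the filter, limma called the same 9 genes among all 34, against 8.04% of 30701 genes called higher and 8.17% called lower. The filter also passes genes that reach it in 1 population only, so the count over tested genes is a description. It moved with single samples: 3 marker genes were called higher without sample 16 or 17, 4 without sample 18 or 19, 5 without sample 13, 15 or 20 and 9 without sample 14, while the 2 called lower stayed 2.

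**Figure D1:**
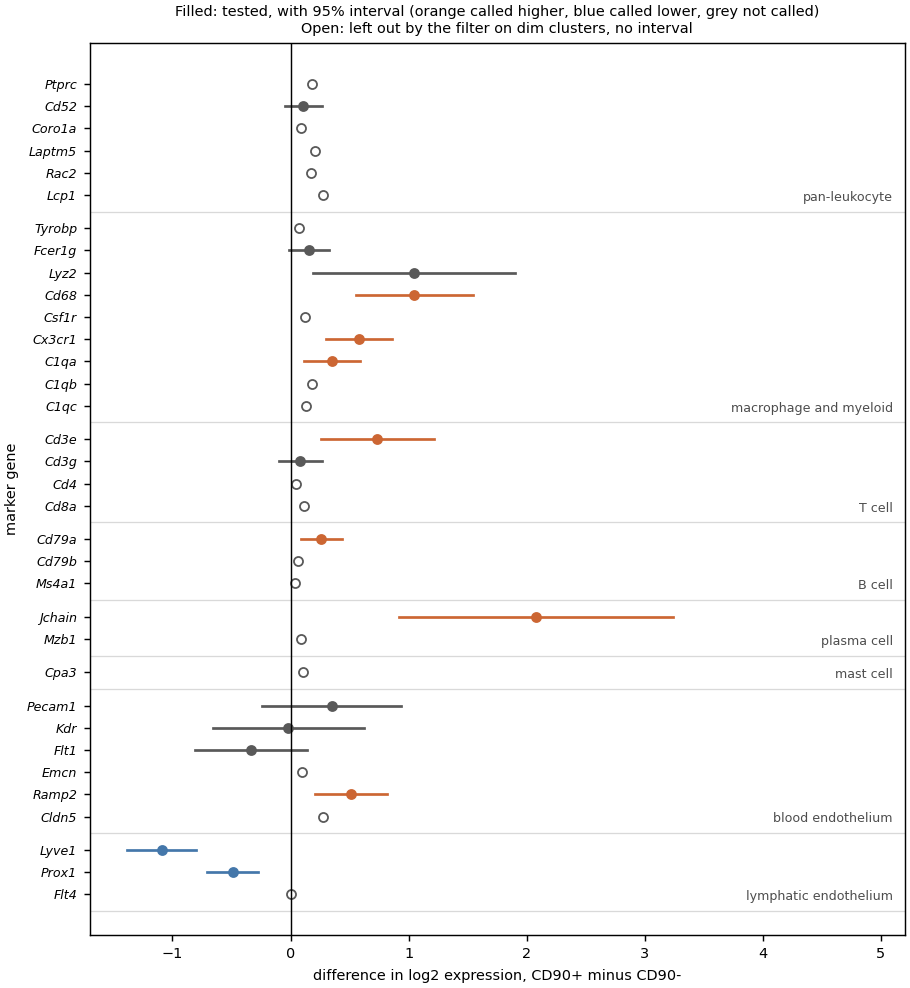
Difference in log2 expression between CD90+ and CD90- samples (x axis) for the 34 measured marker genes (y axis), grouped by cell type; filled points with lines are tested genes with 95% intervals from limma, and open points are genes left out by the filter on dim clusters. The 7 genes called higher are orange and the 2 called lower, Lyve1 and Prox1, are blue; the open points lie between 0.00 and 0.28.

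The 18 marker genes left out by the filter, 15 of leukocytes and 3 of endothelium, had values between 3.62 and 5.61. Their differences ran from 0.0031 to 0.28, with a median of 0.11, beside a median of 0.025 over the 13480 genes left out by the filter. The CD90+ mean was the higher one in all 18, and in 60.1% of those 13480 genes. After median centring of the arrays it was the higher one in 16 of the 18, beside 42.9% of the 13480 genes. The populations overlapped in each of the 18, while they were apart in 7.05% of the genes left out. In limma's fit without a filter 0 of the 18 were called, 2 had an unadjusted p under 0.05, and their smallest adjusted p was 0.129.

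Genes that mark leukocytes as a whole were dim in both populations, and of these 6 the only one tested, Cd52, was not called. Ptprc, whose protein was gated out, was at 4.49, 4.74, 4.53 and 4.51 in CD90- samples 13, 15, 17 and 19 and at 4.65, 4.79, 4.55 and 5.02 in CD90+ samples 14, 16, 18 and 20. The groups overlapped, and the difference was 0.19 (two-sided exact permutation test, p = 0.171). That test treats the samples as unpaired. If consecutive title numbers were pairs, which no label states, Ptprc would be higher in the CD90+ sample of 4 of 4 pairs. The differences would be 0.15, 0.05, 0.02 and 0.52. Laptm5, Lcp1 and Rac2 would also be higher in 4 of 4 pairs, Coro1a in 3 of 4 and Cd52 in 2 of 4. A higher CD90+ value in every pair held for 19.2% of all genes. With 4 pairs an exact test cannot reach 0.05. Laptm5, which codes for a lysosomal membrane protein of blood cells, ran from 4.39 to 4.66 in CD90- and from 4.53 to 4.88 in CD90+ samples. Lcp1, an actin-bundling protein of leukocytes, ran from 4.87 to 5.08 and from 5.05 to 5.52. Coro1a, which codes for a coronin of the leukocyte actin skeleton, ran from 5.07 to 5.30 and from 5.21 to 5.32, and Rac2, a small GTPase of blood cells, from 4.95 to 5.18 and from 5.15 to 5.30. Cd52, a small surface glycoprotein of lymphocytes, passed the filter on 5 arrays, with means of 5.34 ± 0.064 and 5.45 ± 0.098 (SD, n = 4; limma adjusted p = 0.281). Samples 15 and 20 were the highest of their populations for Ptprc, Coro1a, Laptm5 and Lcp1.

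Of the 9 macrophage and myeloid genes, 5 were tested, 3 were called higher and none was called lower; 2 tested genes, Fcer1g and Lyz2, were not called by limma. Cd68 was at 8.57, 8.79, 8.85 and 8.79 in CD90- samples 13, 15, 17 and 19 and at 9.14, 10.32, 9.91 and 9.82 in CD90+ samples 14, 16, 18 and 20. Every CD90+ value lay above every CD90- value, with sample 14 nearest to them. The difference was 1.05 with a 95% interval of 0.56 to 1.54 (limma adjusted p = 0.00664), and between 0.88 and 1.27 when 1 sample was left out. Cx3cr1, the fractalkine receptor of monocytes and resident macrophages, was at 5.82, 6.16, 5.87 and 5.69 against 6.65, 6.22, 6.50 and 6.48, listed in the same order of samples. These groups did not overlap either, although 6.16 in sample 15 came close to 6.22 in sample 16. The difference was 0.58 (limma adjusted p = 0.00718), and Cx3cr1 was called whichever single sample was left out.

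C1q is the recognition molecule of the classical complement pathway, built from the chains coded by C1qa, C1qb and C1qc and made in tissues largely by macrophages. C1qa was at 5.52, 5.50, 5.44 and 5.63 in CD90- and at 5.73, 6.03, 6.06 and 5.66 in CD90+ samples, without overlap but with only a narrow gap between samples 19 and 20. Its difference of 0.35 had a limma adjusted p of 0.0329. The call was lost without sample 13, 15, 16, 17 or 18 (adjusted p = 0.057, 0.0696, 0.0822, 0.0851 and 0.0839) and with consecutive title numbers taken as pairs (adjusted p = 0.0592). C1qb ran from 4.77 to 5.05 in CD90- and from 4.87 to 5.34 in CD90+ samples, and C1qc from 3.72 to 4.34 and from 3.95 to 4.33; both stayed below the filter on every array and their groups overlapped.

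Lyz2, the lysozyme of macrophages and neutrophils, varied most among the CD90+ samples. It was at 5.68, 6.02, 5.91 and 5.58 in CD90- samples 13, 15, 17 and 19 and at 5.89, 7.11, 6.47 and 7.91 in CD90+ samples 14, 16, 18 and 20. Sample 14 lay within the CD90- range and the other 3 CD90+ samples above it. The difference of 1.05 was not called (limma adjusted p = 0.0668), but without sample 14 it was 1.37 and called (adjusted p = 0.012), and without both samples 13 and 14 it was 1.33 (adjusted p = 0.0232). Fcer1g, the Fc receptor gamma chain, was at 5.31 ± 0.083 and 5.47 ± 0.11 (SD, n = 4; limma adjusted p = 0.16). Tyrobp, an adaptor of myeloid and NK cell receptors, ran from 3.90 to 4.12 and from 3.88 to 4.21, and Csf1r, the receptor for macrophage colony-stimulating factor, from 4.75 to 4.88 and from 4.83 to 5.07. Both were below the filter on all arrays with overlapping groups.

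Of the 4 measured T cell genes, only Cd3e, a signalling chain of the T cell receptor complex, was called, and that call was sensitive to leaving out samples. Cd3e was at 5.35, 5.83, 5.70 and 5.61 in CD90- samples 13, 15, 17 and 19 and at 5.70, 6.64, 6.52 and 6.56 in CD90+ samples 14, 16, 18 and 20. Sample 14 lay inside the CD90- range and the other 3 lay above all CD90- values. The difference was 0.74 with a 95% interval of 0.26 to 1.21 (limma adjusted p = 0.0279). Without sample 14 it was 0.96 (adjusted p = 0.000583) and without both samples 13 and 14 it was 0.86 (adjusted p = 0.000228). The call was lost without sample 13, 16, 17, 18, 19 or 20, with differences from 0.64 to 0.76 and adjusted p from 0.0549 to 0.0761. With consecutive title numbers taken as pairs it was kept (adjusted p = 0.00463). Cd3g, a sister chain in the same complex, was at 5.41 ± 0.11 and 5.50 ± 0.1 (SD, n = 4; limma adjusted p = 0.486). The co-receptor genes Cd4 and Cd8a, which set helper and cytotoxic T cells apart, ran from 4.24 to 4.63 and from 4.15 to 4.50 over all 8 arrays, below the filter throughout.

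Cd79a and Cd79b code for the paired signalling chains of the B cell receptor. Cd79a was at 5.54, 5.44, 5.51 and 5.51 in CD90- samples 13, 15, 17 and 19 and at 5.57, 5.83, 5.87 and 5.78 in CD90+ samples 14, 16, 18 and 20. The groups did not overlap, but sample 14 exceeded sample 13 by less than the spread within either group. The difference of 0.26 was called (limma adjusted p = 0.0321), and the call was lost without sample 15, 16, 17, 18, 19 or 20 (adjusted p from 0.0692 to 0.0864) and with consecutive title numbers taken as pairs (adjusted p = 0.0514). It was also lost after median centring (adjusted p = 0.0689) and after another quantile normalization (adjusted p = 0.082). Cd79b ran from 4.81 to 5.01 in CD90- and from 4.85 to 5.05 in CD90+ samples, and Ms4a1, which codes for the B cell surface protein CD20, from 3.62 to 4.02 and from 3.82 to 3.94.

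Jchain had the largest difference among the 34 marker genes. It codes for the joining chain that links IgA and IgM into polymers in plasma cells. Jchain was at 5.32, 7, 5.19 and 5.82 in CD90- samples 13, 15, 17 and 19 and at 7.21, 9.20, 7.47 and 7.77 in CD90+ samples 14, 16, 18 and 20. Sample 15 was the highest of its population by more than 1 unit and sample 16 likewise, and the populations were apart by 0.21. The difference was 2.08 with a 95% interval of 0.92 to 3.24 (limma adjusted p = 0.0149), and it was called whichever sample was left out, at 1.65 without sample 16 and 2.47 without sample 15. Mzb1, an endoplasmic reticulum protein of plasma and marginal zone B cells, ran from 4.29 to 4.52 in CD90- and from 4.22 to 4.65 in CD90+ samples. Cpa3, a carboxypeptidase of mast cell granules, ran from 4.47 to 4.59 in CD90- samples and from 4.55 to 4.92 in CD90+ samples, where sample 18 was the highest.

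Start-site windows are shown for 4 called leukocyte genes, of a macrophage, T cell, B cell and plasma cell list, to show whether genes with the same direction share a motif of a leukocyte factor. RefSeq windows (build GRCm38.p6, 250 bases before to 50 after an annotated start) were matched by symbol for 23 of the 36 listed genes, with 29 windows between them. The purine-rich hexamer GAGGAA, the core of a site known for the myeloid and B cell factor PU.1, was searched on both strands (TTCCTC on the other); it was present in 13 of the 29 windows (44.8%) and in 28.3% of all 32851 windows. In the leukocyte genes alone it was present in 8 of 19 windows (42.1%). That share was no larger than the one over all 29 windows, which include those of endothelial genes. Capitals mark each match, a match is no evidence of binding, and no match says only that these letters are not in the window. The window of Cd68 lies at chr11:69666121-69666420 on the minus strand, that of Cd3e at chr9:45009562-45009861 on the minus strand, that of Cd79a at chr7:24897247-24897546 on the plus strand, and that of Jchain, which has no match, at chr5:88527848-88528147 on the minus strand.
Cd68: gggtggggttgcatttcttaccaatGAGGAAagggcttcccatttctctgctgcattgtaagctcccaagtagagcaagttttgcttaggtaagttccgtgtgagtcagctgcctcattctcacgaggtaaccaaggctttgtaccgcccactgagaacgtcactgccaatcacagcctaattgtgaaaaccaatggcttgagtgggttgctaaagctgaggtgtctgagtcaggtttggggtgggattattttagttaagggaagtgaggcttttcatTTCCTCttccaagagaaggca
Cd3e: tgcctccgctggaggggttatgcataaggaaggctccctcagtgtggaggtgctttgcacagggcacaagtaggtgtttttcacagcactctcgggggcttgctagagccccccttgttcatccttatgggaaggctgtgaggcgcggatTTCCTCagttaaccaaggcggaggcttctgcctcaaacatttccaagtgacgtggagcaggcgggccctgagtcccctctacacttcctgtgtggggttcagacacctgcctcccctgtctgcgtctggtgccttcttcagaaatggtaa
Cd79a: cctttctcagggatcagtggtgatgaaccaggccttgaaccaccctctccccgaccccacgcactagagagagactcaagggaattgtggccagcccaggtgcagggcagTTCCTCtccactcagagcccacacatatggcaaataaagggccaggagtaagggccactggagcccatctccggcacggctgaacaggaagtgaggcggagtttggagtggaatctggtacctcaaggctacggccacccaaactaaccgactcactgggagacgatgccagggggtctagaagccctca
Jchain: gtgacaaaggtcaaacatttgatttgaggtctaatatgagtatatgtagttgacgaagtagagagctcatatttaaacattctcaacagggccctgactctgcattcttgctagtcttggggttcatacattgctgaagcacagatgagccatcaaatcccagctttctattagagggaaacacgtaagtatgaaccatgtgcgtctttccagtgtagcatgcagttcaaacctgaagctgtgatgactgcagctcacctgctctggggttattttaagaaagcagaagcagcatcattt

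**Figure D2:**
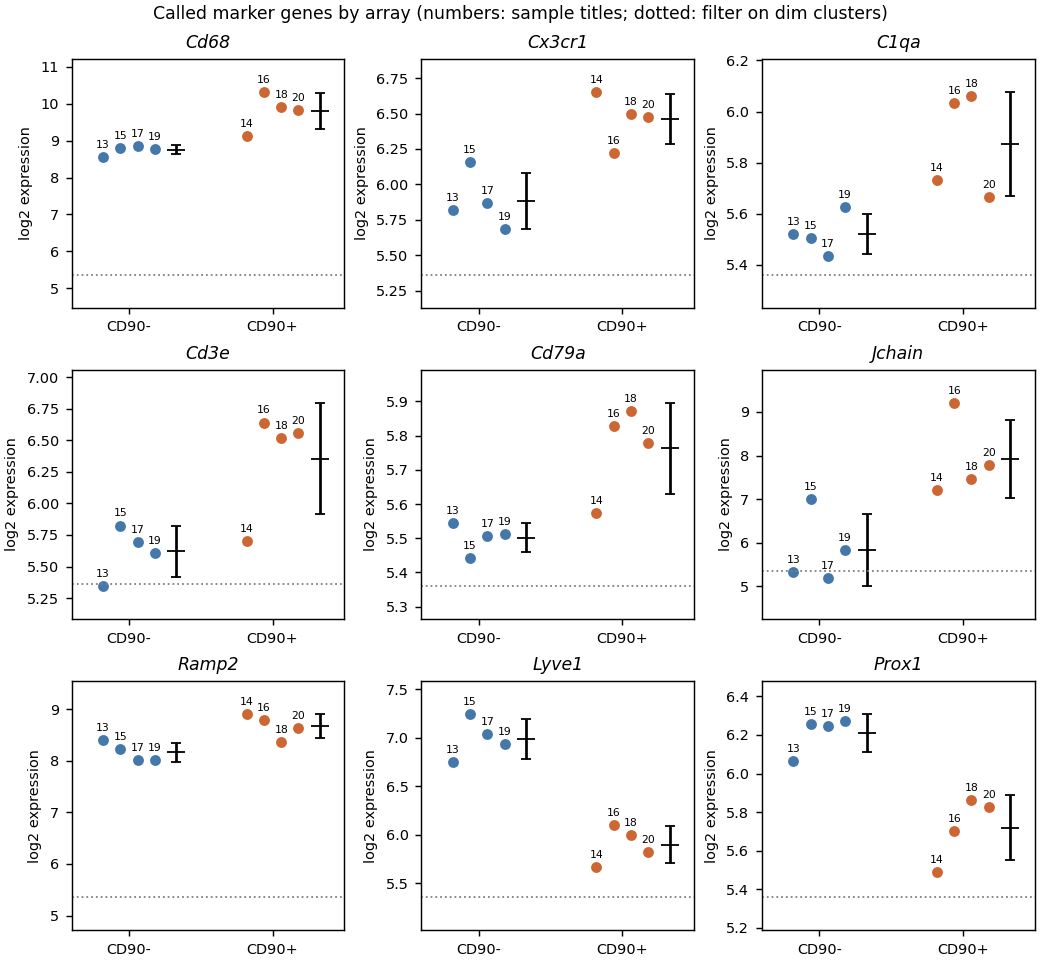
Log2 expression (y axis, different ranges) of the 9 called marker genes in each sample of the CD90- (blue) and CD90+ (orange) populations, with the mean and SD of 4 samples in black and the filter at 5.36 dotted. Sample 14 was the lowest CD90+ sample for Cd68, Cd3e, Cd79a, Jchain, Lyve1 and Prox1.

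A call for one gene and none for its partner does not show that they differ. Among the pairs Cd3e and Cd3g, Cd79a and Cd79b, C1qa with C1qb or C1qc, Jchain and Mzb1, and Lyve1 or Prox1 with Flt4, both genes passed the filter only for Cd3e and Cd3g. The difference of Cd3e exceeded that of Cd3g by 0.65 (two-sided exact permutation test, p = 0.0571, or 0.1 adjusted over the 7 pairs, which were chosen after their values were seen). In the other 6 pairs the second gene was below the filter on all 8 arrays, and no difference between partners is read from them.

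Of the 6 measured blood endothelial genes 4 were tested, 1 was called higher and none lower by limma, and the populations overlapped in all 6. Pecam1, whose protein was gated out, was at 6.66, 6.27, 6.20 and 5.84 in CD90- samples 13, 15, 17 and 19 and at 5.86, 7.01, 6.69 and 6.81 in CD90+ samples 14, 16, 18 and 20. Sample 14 was at the bottom of the CD90- range and the other CD90+ samples lay above its top. The difference of 0.35 was not called (limma adjusted p = 0.35), but it was 0.59 and called without sample 14 (adjusted p = 0.0426), and 0.73 without both samples 13 and 14 (adjusted p = 0.00611). Kdr, a receptor for vascular endothelial growth factor, was at 6.54, 5.51, 5.40 and 5.32 in CD90- samples 13, 15, 17 and 19 and at 5.29, 6.10, 5.57 and 5.73 in CD90+ samples 14, 16, 18 and 20, with sample 13 above all others. Its difference was -0.02 (limma adjusted p = 0.969) and changed sign to 0.26 without sample 13 (adjusted p = 0.296), 0.11 without sample 14 (adjusted p = 0.819) and 0.014 without sample 18 (adjusted p = 0.981). Flt1, a related receptor, was at 6.50, 6.49, 7.08 and 6.53 against 5.77, 6.69, 6.39 and 6.41 (limma adjusted p = 0.272), with overlapping groups.

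Emcn, an endothelial sialomucin, was at 5.46, 5.12, 5.11 and 4.98 in CD90- samples 13, 15, 17 and 19 and at 4.70, 5.61, 5.19 and 5.57 in CD90+ samples 14, 16, 18 and 20, so that sample 14 was the lowest and sample 16 the highest of all. Cldn5, a tight junction protein of vessels, ran from 4.51 to 4.70 and from 4.56 to 5.26. Ramp2 was the only one of the 6 to be called, at 8.39, 8.22, 8.01 and 8.01 against 8.90, 8.78, 8.37 and 8.64. Only samples 13 and 18 made the groups overlap. The difference was 0.51 with a 95% interval of 0.21 to 0.81 (limma adjusted p = 0.0191), and the call was lost without sample 16, 17 or 19 (adjusted p = 0.0518, 0.0552 and 0.0575).

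Lyve1 and Prox1 were lower in the CD90+ population, and these were the only 2 marker genes called lower. Lyve1, a hyaluronan receptor of lymphatic endothelium and of some tissue macrophages, was at 6.75, 7.25, 7.04 and 6.94 in CD90- samples 13, 15, 17 and 19 and at 5.67, 6.10, 6.00 and 5.83 in CD90+ samples 14, 16, 18 and 20. The populations were apart by 0.65. The difference was -1.09 with a 95% interval of -1.38 to -0.80 (limma adjusted p = 0.000284), and it ran from -1.17 to -1.01 with 1 sample left out. Prox1, the transcription factor that sets lymphatic identity, was at 6.06, 6.26, 6.25 and 6.27 against 5.49, 5.70, 5.86 and 5.82, again without overlap. Its difference was -0.49 (limma adjusted p = 0.00484), called with any 1 sample left out. Flt4, the receptor for the lymphatic growth factor VEGF-C, was below the filter on all arrays, at 4.77 ± 0.18 in CD90- and 4.77 ± 0.069 in CD90+ samples (SD, n = 4).

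All 9 called genes kept their call and direction without samples 13 and 14, a setting in which Lyz2 and Pecam1 were called as well. Across cell types, the CD90+ mean was the higher one in all 25 measured leukocyte genes, by a median of 0.16, where 53.2% of all 30701 genes had the higher mean there and their median difference was 0.012. In the wider leukocyte lists the CD90+ mean was higher in 49 and lower in 17 of 66 genes, with 6 of 7 granulocyte and 5 of 11 T and NK cell genes lower. The count for the 25 genes was 24 after median centring, where Ms4a1 was lower, and 23 without sample 13, where Cd4 and Ms4a1 were lower. Populations did not overlap in 5 leukocyte genes with CD90+ above, and in the 2 lymphatic genes with CD90+ below; over all genes measured this held for 10.5% and 10.7%.

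To describe how the genes varied together, the arrays were ranked for each gene within each population. Samples 13 and 14, which stood apart in Xist and Uty, hold several of the ranks below. The ranking was not repeated without them. Among the 6 blood endothelial genes, sample 13 was the highest CD90- sample for 4 and sample 19 the lowest for 4. In the CD90+ population sample 16 was the highest for 5 and sample 14 the lowest for 5 of the same 6. Over all 30701 genes sample 13 was the highest CD90- sample in 20.5%, sample 16 the highest CD90+ sample in 25.5% and sample 14 the lowest in 30.9%. The list mean of the 6 genes ran from 5.90 in sample 19 to 6.36 in sample 13, and from 5.85 in sample 14 to 6.58 in sample 16. The 20 further blood endothelial genes fixed as a list had sample 13 as the highest CD90- sample for 10 and sample 15 for 8. In CD90+ samples, sample 14 was the lowest for 11, and the highest was sample 18 for 8 and sample 16 for 7. By this count sample 16 led less clearly than in the 6 genes. The CD90+ mean over the 20 genes was still highest in sample 16, at 6.03, and lowest in sample 14, at 5.84.

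Among CD90- samples the leukocyte genes had another order than the blood endothelial genes, and among CD90+ samples the means over either list had the same order (14, 18, 20, 16). The wider lists did not keep this order. From lowest to highest it was 14, 16, 18, 20 for the 66 further leukocyte genes. For the 20 further blood endothelial genes it was 14, 20, 18, 16. The mean over the 25 leukocyte genes was 5.28 in sample 14, 5.40 in sample 18, 5.49 in sample 20 and 5.55 in sample 16. Sample 15 was the highest CD90- sample for 12 of the 25 genes, among them all 4 T cell genes and 4 of the 6 pan-leukocyte genes. Sample 15 was also the highest in 48.1% of the 13480 genes left out by the filter. Over the marker genes and wider lists of leukocytes together, it was the highest in 61 of 91 genes (67.0%). Why sample 15 held this rank was not tested. In the CD90+ population sample 14 was the lowest for 12 of the 25, and sample 16 the highest for 9 and sample 20 for 8. Sample 20 was the highest for 5 of the 6 pan-leukocyte genes and for 11 of the 14 further genes of that list, beside 20.2% of the genes left out by the filter. The 9 macrophage and myeloid genes had no common order, with the highest CD90+ value in sample 16 for 4, sample 14 for 3, and samples 18 and 20 for 1 each.

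**Figure D3:**
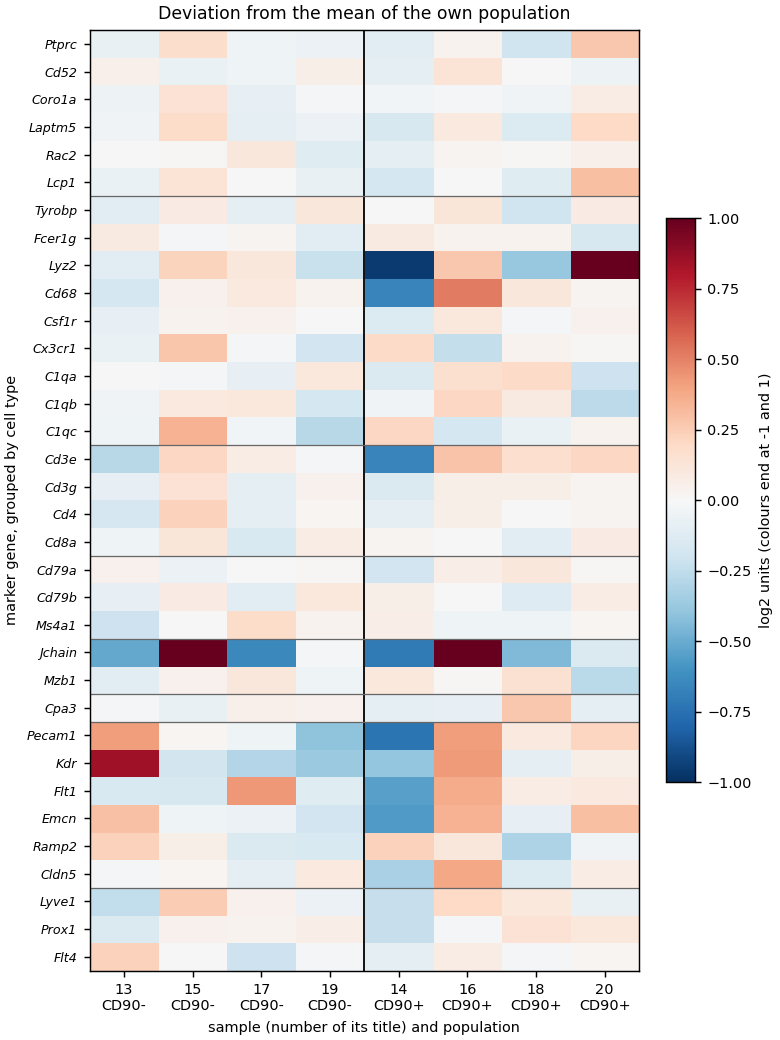
Deviation of each marker gene (y axis, grouped by cell type) in each sample (x axis) from the mean of its own population, in log2 units; colours end at -1 and 1. Of the 6 blood endothelial genes, 5 were lowest in sample 14 and highest in sample 16 of the CD90+ samples, with Ramp2 highest in sample 14, and 4 were highest in sample 13 of the CD90- samples; Jchain was high in samples 15 and 16 and Lyz2 in sample 20.

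Markers of other cells also varied between samples of a population. All 13 measured epithelial markers were highest in sample 13 among CD90- and in sample 20 among CD90+ samples. Their list mean ran from 7.25 to 9.04 in CD90- and from 7.56 to 9.04 in CD90+ samples, and 0 of 12 tested were called by limma. Of 7 enteric glia markers all 7 were called higher, and their list mean ran from 5.44 to 5.81 and from 7.14 to 8.35. Sample 14 was the lowest CD90+ sample for 6 of these 7 and sample 16 the highest for 5. Their CD90+ list means had the same order (14, 18, 20, 16) as those of the blood endothelial marker genes, though not of the wider blood endothelial list. Of 9 smooth muscle and pericyte markers 5 were called higher and 3 lower, and their list mean ran from 8.65 to 9.18 and from 8.63 to 9.38. The part of these 3 kinds of cell in the differences of the leukocyte and endothelial genes was not tested.

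**Figure D4:**
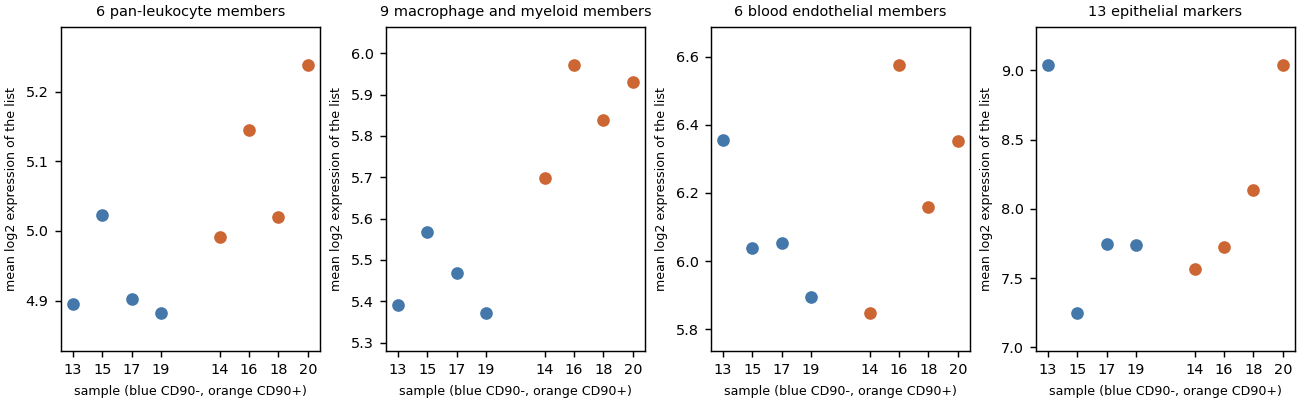
Mean log2 expression (y axis, different ranges) in each sample (x axis, CD90- blue and CD90+ orange) of 6 pan-leukocyte, 9 macrophage and myeloid and 6 blood endothelial marker genes and of 13 epithelial markers. The epithelial mean is highest in samples 13 and 20, and the blood endothelial mean in samples 13 and 16 of their populations.

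Other genes of the same cell types were fixed as wider lists. Of 66 further leukocyte genes measured, 16 passed the filter, 1 was called higher and 1 lower by limma, where such calls fell on 14.0% and 15.7% of all genes tested, and the median difference over the 66 was 0.07. Fcgr3, an Fc receptor of myeloid and NK cells, was at 5.77 ± 0.17 in CD90- and 6.14 ± 0.15 in CD90+ samples (SD, n = 4; limma adjusted p = 0.032), and lost its call without sample 13, 16, 17, 18, 19 or 20 (adjusted p from 0.0559 to 0.0763) and after another quantile normalization (adjusted p = 0.0522). Mertk, a receptor for the uptake of dying cells, was lower, at 8.47 ± 0.091 and 7.83 ± 0.094 (limma adjusted p = 0.000263). Srgn, the proteoglycan of secretory granules, was at 7 ± 0.02 and 7.02 ± 0.16. The genes with the highest mean in the T and NK, B and plasma, and mast cell lists, Cd28, Ighm and Tpsb2, had means of at most 5.68 in both populations.

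Of 24 further endothelial genes, 15 passed the filter, 3 were called higher and 2 lower, shares near those over all genes tested (14.0% and 15.7%). The median difference over the 24 was 0.029. Among the 9 left out by the filter, Vwf was higher and Sox7 lower without overlap, with differences of 0.34 and -0.37. Limma called both in the fit without a filter (adjusted p = 0.0333 and 0.0091). Such calls fell on 8.04% and 8.17% of 30701 genes. Tek, the angiopoietin receptor, was higher, at 8.64 ± 0.75 in CD90- and 10.48 ± 0.67 in CD90+ samples (SD, n = 4; limma adjusted p = 0.0109). Itga9, an integrin chain of lymphatic valves and other tissues, was higher by 0.64 (limma adjusted p = 0.00257). Clec14a, an endothelial lectin-like receptor, and Aplnr, the apelin receptor, were lower, with differences of -1.23 and -0.54, at 7.82 against 6.59 and 6.10 against 5.56 (limma adjusted p = 0.00851 and 0.0107). Gpihbp1, named after its values were seen, was the remaining gene called higher (0.20; limma adjusted p = 0.0398), and lost its call without any 1 of samples 13, 15, 16, 17, 18, 19 and 20 (adjusted p from 0.0578 to 0.105), without a filter, after either other normalization and with assumed pairs. Eng, an accessory receptor of TGF-beta, was at 10.33 ± 0.065 and 10.45 ± 0.23 (limma adjusted p = 0.482), and the lymphatic gene Mmrn1 at 5.62 ± 0.48 and 5.57 ± 0.22 (adjusted p = 0.883).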

How the data were processed

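RNA of sorted colon fibroblasts was measured on 8 one-colour Affymetrix arrays, with 2 ng amplified per sample per the labels' protocols. The authors deposited log2 values, made with Affymetrix Expression Console 1.1 and RMA per the submitters' processing notes; the settings and the genome build are not given in the sources used here. Of 65956 transcript clusters, 31258 named 1 gene, with repeated symbols counted once and symbols updated through RefSeq (GRCm38.p6), 1492 named several and 33206 none. Each gene kept the cluster with the highest mean.

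Genes at or above 5.36 (the 50th percentile over clusters) on 4 or more of the 8 arrays were tested with limma 3.58.1 (lmFit, eBayes) in R 4.3.3, two-sided and without a block, with Benjamini-Hochberg adjustment over 17221 genes. Exact permutation tests used all 70 assignments of the samples. In a simulation of these 17221 genes with independent normal noise, 66, 71 and 63 genes were changed by 0.5, 1 and 2 (log2). Limma called 39.4%, 85.9% and 96.8% of them, with 152 calls in all. The fit to the real values called 2417 genes higher and 2700 lower, so its adjusted threshold fell elsewhere. These shares are therefore no measure of power in the real data. No label pairs the samples. Consecutive title numbers were tried as pairs, since the deviations of such samples from their population means correlated at 0.288 to 0.451 across genes. Samples 13 and 14, an assumed pair, also shared high Xist and low Uty, unlike every other sample. Other combinations of a CD90- and a CD90+ sample ran from -0.428 to 0.314. The highest of these, 19 with 18, exceeded the assumed pair of 19 and 20 (0.288). The array number limits precision. The marker genes and lists were chosen with earlier results of these data known. The rule for genes to name covered all marker genes and the sort genes. From each other list it took the top 3 by mean plus at most 3 called ones by smallest p. Only some of these list genes are printed. Gpihbp1, Sox7, Vwf, Uty and Xist are named outside the rule.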

Additional observations from a re-analysis of the deposited data

Results flagged for a closer look

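Dixon's test for a sample far from the other 3 of its population was applied to 68 groups of 4 values, and picked out 7, where chance gives about 1 in 20. In CD90- samples, Ptprc was at 4.74 in sample 15 against 4.49 to 4.53 in the others, Kdr at 6.54 in sample 13 against 5.32 to 5.51, Flt1 at 7.08 in sample 17 against 6.49 to 6.53, and Prox1 at 6.06 in sample 13 against 6.25 to 6.27. In CD90+ samples, Cd3e was at 5.7 in sample 14 against 6.52 to 6.64, Cd3g at 5.35 in sample 14 against 5.53 to 5.56, and Cpa3 at 4.92 in sample 18 against 4.55 to 4.57.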

How the results depend on the processing

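Of 276 differences of single marker genes recomputed under the alternatives, 239 kept their direction and their side of the threshold, 26 lost a call, 6 gained one and 5 changed sign. The 239 include the 18 genes left out by the filter, recomputed only without it, which had no call to keep or lose. Omitting the filter, a robust variance, averaging rows of a gene and assumed pairs cannot change a difference here, only its p. The 239 are therefore no measure of robustness. Every change of sign was in Kdr, which was never called: 0.25 with array weights, 0.39 without samples 13 and 14, and from -0.16 to 0.26 with 1 sample left out. The number of marker genes called higher was 2 with the filter at the 75th percentile and from 3 to 9 with 1 sample left out. The number called lower was 0 with the filter at the 75th percentile, where only Cd68 and Ramp2 were tested, and 2 under the other alternatives. Taking consecutive title numbers as pairs, which no label states, left 5 called higher, with C1qa and Cd79a lost, and changed no other call among the marker genes. Array weights ended the call of C1qa (adjusted p = 0.0511), and another quantile normalization those of C1qa (adjusted p = 0.06) and Cd79a; array weights gave calls to Lyz2 (adjusted p = 0.011) and Pecam1 (adjusted p = 0.0207). The cause of these changes was not tested. Signal close to the array's background limits what the dim genes can show, and a missed threshold there does not show equal levels.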
